A study of Mus musculus with 8 samples.

Results

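The genes of the cytosolic ribosomal proteins were examined in pericytes and smooth muscle cells (SMCs) of mouse skeletal muscle. Members were chosen by symbol alone, as every Rpl or Rps gene with a number and at most an a, x or l behind it, together with Rplp0, Rplp1, Rplp2 and Rpsa. This gave 81 of the 37979 genes in the expression table, of which 32 make proteins of the small subunit, 46 proteins of the large subunit and 3 proteins of the P stalk. Symbols with a hyphen, which mark 162 pseudogenes of the same proteins, were left out.

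Bulk RNAseq libraries came from hindlimb muscle of young adult Ai14+/-;SM22α-Cre+ mice of both sexes, and all mice carried both alleles. In these mice Cre recombinase under the SM22α promoter switched on the red fluorescent protein tdTomato, so that tdTomato marks cells that once used this promoter. Pericytes were PDGFRβ+tdTomato- cells and SMCs were PDGFRβ+tdTomato+ cells, both from the gate low for DAPI and negative for FITC, the dye on the CD31 and CD45 antibodies, with 4 libraries (PC-1 to PC-4 and SMC-1 to SMC-4) in each group. Each sample pooled cells of multiple sorts, all 8 libraries carry the same batch label, and no animal or sort is given for a library, so p-values measure only the spread between these libraries.

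Ribosomes translate mRNA into protein, and each is built from a small subunit, which reads the mRNA, and a large subunit, which joins the amino acids. Nearly every ribosomal protein is present in a single copy per ribosome, and their genes are among the most abundantly transcribed in most cells. Their mRNAs belong to the terminal oligopyrimidine (TOP) class. These mRNAs begin with a C followed by a run of C and U, and through the protein LARP1 this run lets mTOR signalling set how strongly they are translated. A transcript level is therefore not a measure of ribosome number or of protein synthesis.

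The stretch of DNA around the transcription start was read for the members with a RefSeq promoter (build GRCm38.p6), which were 60 of 81 genes with 72 promoters in all. A run of at least 8 C or T that starts with C, on the sense strand within 20 bases of the start, was found in 30 of the 72 (41.7%) and in 12.6% of the 32851 promoters of all genes. Among members named below, Rpl41, Rpl12, Rps7, Rps19, Rplp0 and Rpl11 have no such run and are not shown. The following windows run from 40 bases before the start to 20 bases from it. They show a choice of members, most of them with that run, which is in capitals. They come from Rps27, the most abundant member, Rps18 and Rps15a, which were among the genes with the largest differences, the stalk gene Rplp2, the short gene Rpl38, Rpsa, which has no such run here, and Rps27l, the abundant member with a difference below 0.
Rps27 (chr3:90213629-90213688, minus strand): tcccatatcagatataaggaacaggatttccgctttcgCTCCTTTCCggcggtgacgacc
Rps18 (chr17:33955646-33955705, minus strand): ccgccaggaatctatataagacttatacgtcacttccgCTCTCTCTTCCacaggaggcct
Rps15a (chr7:118116128-118116187, minus strand): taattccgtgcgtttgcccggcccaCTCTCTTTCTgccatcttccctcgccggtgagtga
Rplp2 (chr7:141447611-141447670, plus strand): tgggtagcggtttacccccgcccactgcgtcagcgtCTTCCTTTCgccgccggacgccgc
Rpl38 (chr11:114668540-114668599, plus strand): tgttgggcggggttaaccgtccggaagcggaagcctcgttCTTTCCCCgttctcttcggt
Rpsa (chr9:120127726-120127785, plus strand): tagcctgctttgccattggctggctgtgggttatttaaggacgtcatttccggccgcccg
Rps27l (chr9:66946046-66946105, plus strand, the first of its starts): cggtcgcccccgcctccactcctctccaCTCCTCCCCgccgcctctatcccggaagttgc

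The run lay across or near the start in Rps27, Rps18, Rplp2 and Rpl38 and further upstream in Rps15a and Rps27l. The shorter motif CTTTCC, searched on the sense strand within 20 bases of the start, was in 11 of the 72 promoters (15.3%) and in 1.95% of all promoters. CGGAAG, the core bound by ETS factors, was found on either strand in the 250 bases before the start in 34 of 72 (47.2%) against 13.6% of all promoters. The TATA box TATAAA, searched in the same way, was in 3 of 72 (4.17%) against 12.4%. Some genes have several promoters in these counts, and a match is a string of letters, not a site shown to be used.

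Expression was measured as FPKM, the fragments of a gene per kilobase of its transcript, scaled by all fragments mapped in the library. Summed over all genes, FPKM ranged from 656405 to 1190435 per library, with the highest sum in PC-2 and the next in PC-4 at 782014, and between 12713 and 13194 genes reached 1 FPKM. The number of reads behind a value is unknown. Tests used log2(FPKM + 1), on which changes of weakly expressed genes come out too small. They were made with limma, and p-values were adjusted by Benjamini and Hochberg's method (q value) over the 27414 genes above 0 in any library. Differences are pericytes minus SMCs on this log2 scale. The tdTomato driver gene Tagln (SM22α) had 165 to 551 FPKM in pericyte libraries and 499.7 to 1569 FPKM in SMC libraries (limma q = 0.110), and Pdgfrb had 3.21 to 17.6 and 15.6 to 91.5 FPKM (q = 0.0973, and 0.00601 with the replicate number fitted as a block). Ptprc, the gene of the CD45 antigen on which cells were excluded, had 80.6 to 230.3 FPKM in pericyte libraries and 4.34 to 11.9 FPKM in SMC libraries (q = 4.0e-04). Pecam1, the gene of CD31, had 25.0 to 59.7 FPKM and 102 to 301 FPKM (q = 0.00873).

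Ribosomal protein genes held a larger share of the summed FPKM in pericyte libraries than in SMC libraries. They made up 14.9%, 22.4%, 15.6% and 16.7% of the summed FPKM in PC-1 to PC-4 and 9.09%, 8.36%, 5.65% and 5.98% in SMC-1 to SMC-4. Every pericyte library was above every SMC library, and the means were 17.4% ± 3.43 and 7.27% ± 1.71 (SD, n = 4 each), 10.1 percentage points apart. PC-2 stood apart from the other pericyte libraries, which gave 15.7% ± 0.873 (SD, n = 3) without it. Both subunits contributed, the small subunit with 8.59% ± 1.83 against 3.34% ± 0.80 and the large subunit and P stalk together with 8.81% ± 1.60 against 3.93% ± 0.92 (SD, n = 4 each). Because FPKM divides by length, short genes weigh more in such a share than in the fragments sequenced. With FPKM multiplied back by transcript length the share was 9.19% ± 2.95 in pericytes and 3.33% ± 0.98 in SMCs (SD, n = 4 each), and the groups again did not overlap.

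**Figure D1:**
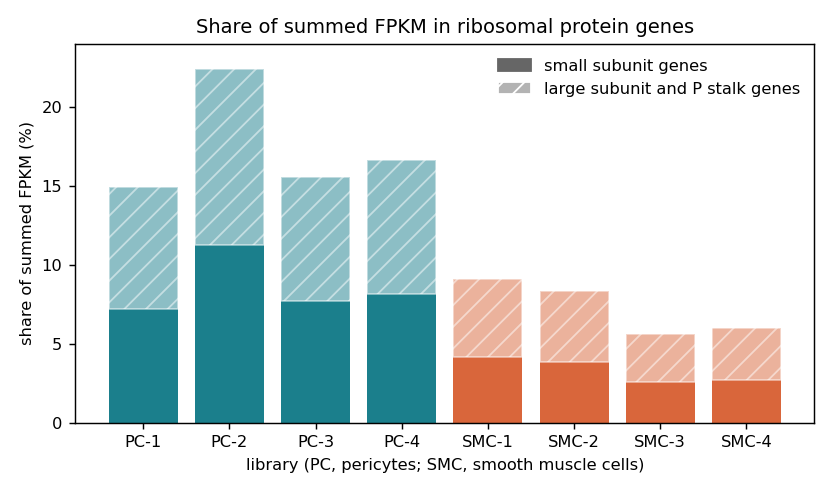
Share of the summed FPKM (%) that fell on ribosomal protein genes in each library, with small subunit genes as solid bars and large subunit and P stalk genes as hatched bars on top. The 4 pericyte libraries (PC) reach 14.9% to 22.4% and the 4 SMC libraries 5.65% to 9.09%.

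These are bulk samples, in which fewer cells of a type and less RNA per cell cannot be told apart. Markers of several other cell types moved with the groups. The summed FPKM of 6 T cell markers was 1199 to 1857 in pericyte libraries and 18.6 to 47.1 in SMC libraries, and that of 5 B cell markers was 793 to 1977 and 9.53 to 30.8, with 5 of 6 and 5 of 5 markers separating the groups and none at 0 throughout a group. The 4 fibroblast markers summed to 152 to 338 in pericyte libraries and 1435 to 3323 in SMC libraries, and the 5 endothelial markers to 45.2 to 89.4 and 204 to 623. The 4 mural markers overlapped between the groups, at 21.0 to 67.1 and 48.5 to 223, as did the 4 SMC markers, at 530.4 to 1844 and 1691 to 5309. So did the sums of 4 macrophage markers, at 63.4 to 144 in pericyte libraries and 91.6 to 185 in SMC libraries, of 5 skeletal muscle fibre markers, at 26.3 to 31.6 and 21.7 to 34.9, and of 3 erythroid markers, at 66.5 to 1911 and 68.5 to 422. The 3 pan-leukocyte markers summed to 1745 to 1880 and 80.4 to 114, although CD45+ cells were excluded by the gate. The part of these other cells in the ribosomal protein share was not tested. Without the immunoglobulin and T cell receptor segments in the total, the mean shares were 18.3% and 7.28%, and the difference in share was 11.1 percentage points. Taking segments out of the total can only raise a share. Ribosomal protein transcripts of the cells that made the segments stay in it, so this does not measure the part of those cells.

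Members fell into 2 classes by level. In every library 78 of the 81 genes had more than 100 FPKM, between 277 and 22763 FPKM in pericyte libraries and between 124 and 3639 FPKM in SMC libraries. The other 3, Rpl3l, Rpl10l and Rpl39l, stayed under 10 FPKM throughout and were listed at 0 in at least 1 library. The order of the 78 genes by mean level was nearly shared between the groups (Spearman's rho 0.95 across genes of the same libraries, a description only). The 6 most abundant members, Rps27, Rpl41, Rpl13, Rps14, Rps19 and Rps18, held 24.4% to 25.5% of the members' summed FPKM in pericytes and 21.4% to 23.7% in SMCs.

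**Figure D2:**
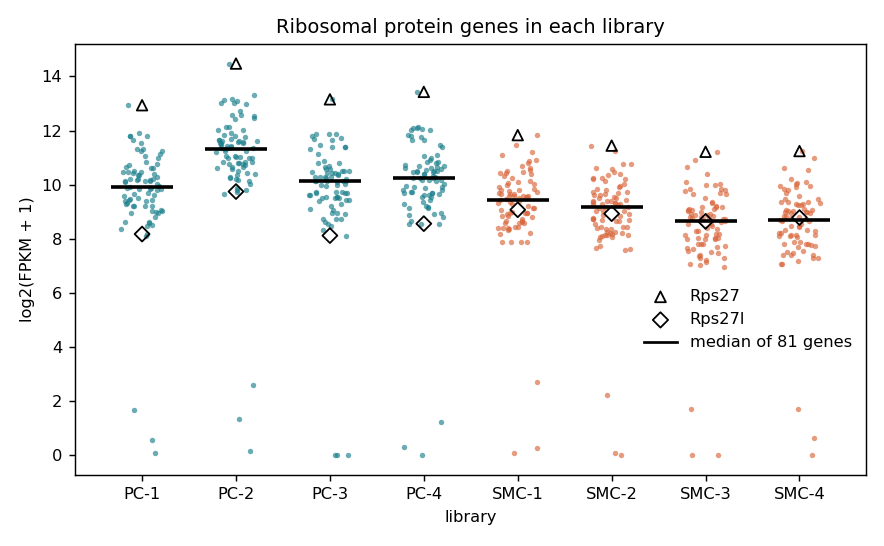
Level of each of the 81 genes in each library as log2(FPKM + 1), 1 point per gene, with the median as a bar and Rps27 and Rps27l marked. Most pericyte points sit above their SMC counterparts, PC-2 is the highest library, and Rps27l sits low in pericytes but near the middle in SMCs, while the 3 points near the bottom are Rpl3l, Rpl10l and Rpl39l.

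Rps27 encodes a zinc-binding protein of the small subunit and lies on chromosome 3 of NCBI Build 37 (chr3:90016593-90017573, minus strand). It had 7825, 22763, 9103 and 11022 FPKM in PC-1 to PC-4 and 3639, 2778, 2375 and 2419 FPKM in SMC-1 to SMC-4. In pericytes it ranked first or second of all genes, and in SMCs it ranked between 13 and 21. The log2 difference was 2.07 (SE 0.34, limma q = 0.00468), but it became -0.34 (q = 0.273) when each library was corrected for a trend of its values on GC content and transcript length. With that trend fitted without members and without immunoglobulin and T cell receptor segments (immune segments), it was 1.91 (q = 1.8e-04). Rpl41, the gene of the smallest ribosomal protein, followed with 3544 to 10141 FPKM in pericytes and 1918 to 2849 FPKM in SMCs, and its difference of 1.11 did not pass (q = 0.0612). Rpl13, of the large subunit, had 3604 to 9029 FPKM in pericytes and 1343 to 2349 FPKM in SMCs and rose by 1.53 (SE 0.32, q = 0.0143). Rps14, Rps19 and Rps18, all of the small subunit, rose by 1.32, 1.78 and 1.81 (q = 0.0221, 0.00895 and 0.00803). Rps14 rose by 0.59 with the trend fitted on all genes removed (q = 0.0498), and by 1.22 with the other fit (q = 0.00187). RPS14 and RPS19 are known from blood disorders in which their genes are lost or mutated.

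The members as a group were higher in the pericyte libraries. In 74 of the 78 abundant genes the lowest pericyte library exceeded the highest SMC library, as it did in 12.1% of all 27414 genes tested and in 26.6% of the 1234 other genes that averaged 100 FPKM or more. The reverse held for none of them and for 12.5% of all genes tested. By limma, 67 of the 81 rose in pericytes, against 10.6% of all genes tested and 21.8% of those 1234 genes. None was higher in SMCs (11.2% of all genes tested), nor at an unadjusted limma p below 0.05, where 77 were higher in pericytes. The median difference was 1.44, a 2.71-fold higher level, against 0.02 over all genes tested. Genes that passed ranged from 1.11 to 2.13, or 2.16-fold to 4.36-fold. The small subunit had 29 of 32 genes called with a median of 1.55, the large subunit 35 of 46 with 1.41 and the P stalk 3 of 3 with 1.33.

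Counts of called genes depended on single libraries, at 43 without PC-4 (9.67% of all genes tested) and at 37, 33 and 34 without SMC-2, SMC-3 and SMC-4 (8.38%, 8.32% and 8.56% of all genes tested). The median difference stayed between 1.15 and 1.59 with any library left out. Without PC-2, 68 genes were called higher in pericytes (11.8% of all genes tested) and Rps27l was called higher in SMCs (11.4%). Leaving out PC-2 could not change the count of 74 of the 78 abundant genes that separated with pericytes higher. PC-2 was the highest pericyte library for all 78, so it never set the lowest pericyte value.

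**Figure D3:**
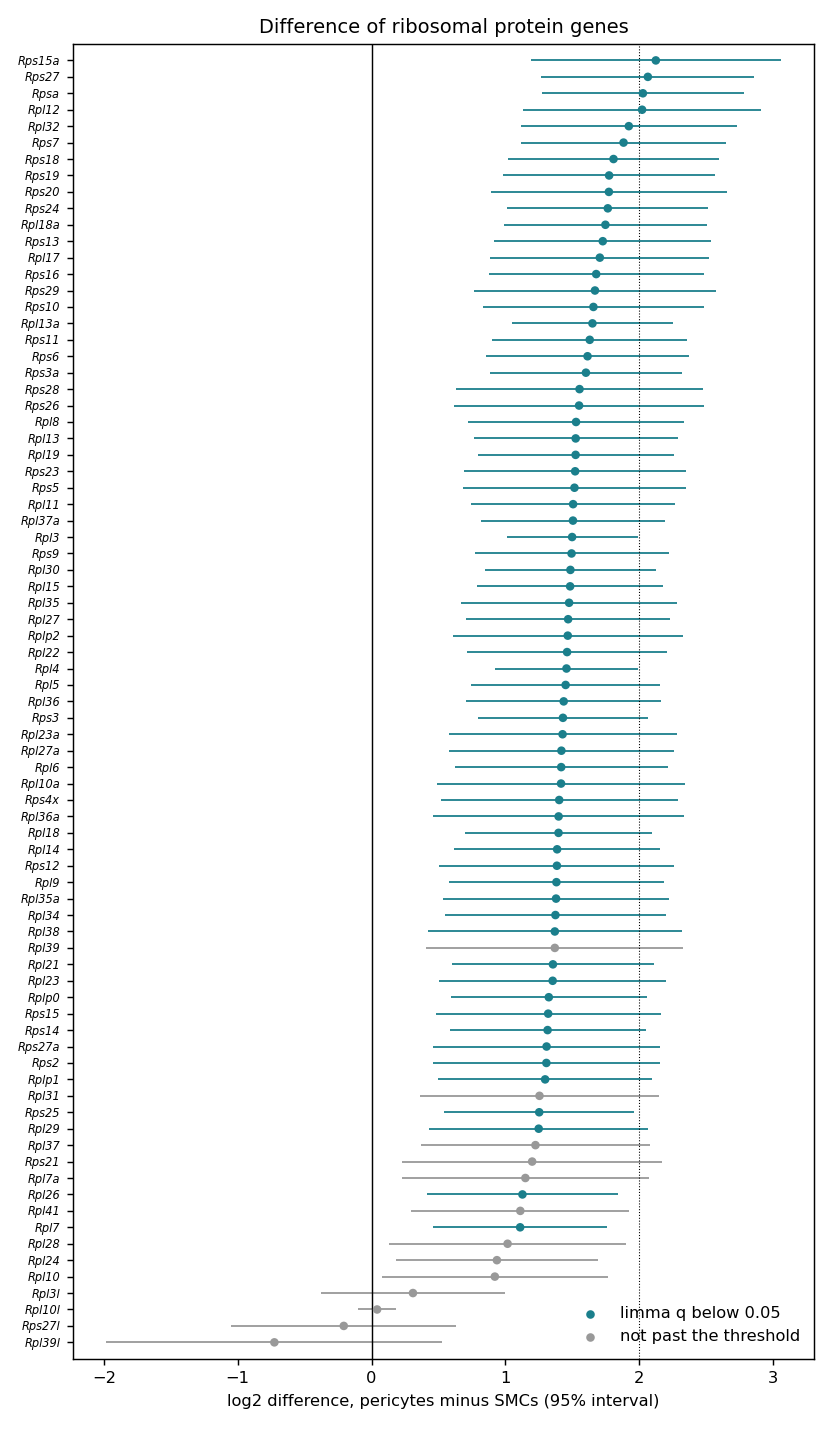
Log2 difference, pericytes minus SMCs, of 79 of the 81 genes with its unadjusted 95% interval from limma, ordered by size, with genes at q below 0.05 in colour. All but Rps27l and Rpl39l lie above 0, and 4 genes pass the dotted line at a log2 difference of 2.

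The 4 genes past a log2 difference of 2, a threshold that 3.24% of all genes tested passed in this direction, were Rps15a, Rps27, Rpsa and Rpl12. Rps15a, a protein of the small subunit, had 591, 1843, 752 and 793 FPKM in pericytes and 297, 249, 141 and 169 FPKM in SMCs, a difference of 2.13 (SE 0.40, limma q = 0.00828). Rpsa, also known as the laminin receptor precursor and part of the small subunit, had 947, 2083, 983 and 1164 FPKM in pericytes and 442, 343, 225 and 236 FPKM in SMCs, a difference of 2.03 (SE 0.32, q = 0.00401). Rpl12, which lies at the base of the stalk on the large subunit, had 664, 1707, 786 and 752 FPKM in pericytes and 334, 280.4, 166 and 155 FPKM in SMCs, a difference of 2.02 (SE 0.38, q = 0.00825). In all 3 the lowest pericyte library exceeded the highest SMC library. Without PC-2 the differences of the 4 genes were 1.72 to 1.78, and with the libraries scaled to a common sum they were 1.78 to 1.89.

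The next largest differences were those of Rpl32 at 1.92, Rps7 at 1.88, Rps18 at 1.81, Rps19 at 1.78, Rps20 at 1.77 and Rps24 at 1.77 (limma q between 0.00599 and 0.0139). With the length and GC trend removed, Rps18 and Rps24 did not pass (0.61 and 0.35, q = 0.0856 and 0.171). With that trend fitted without immune segments and members, both passed (1.68 and 1.68, limma q = 9.0e-04 and 1.2e-04). Of the 10 largest differences, 8 belonged to small subunit genes. Rps7 had 694, 1794, 729 and 899 FPKM in pericytes and 332, 285, 198 and 232 FPKM in SMCs. Rpl32 was several times more abundant, at 2973, 8174, 3359.7 and 4213 FPKM against 1583, 1199.5, 884 and 987 FPKM. The smallest q value was that of Rpl3, which helps to form the peptidyl transferase centre. It had 1433, 2348, 1447 and 1626 FPKM in pericytes and 739, 667, 469.9 and 532 FPKM in SMCs, and rose by 1.50 (SE 0.21, q = 0.00225). Rpl3 and Rpl4 were less raised in PC-2 than most members, and had the smallest standard errors among the abundant genes.

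The P stalk recruits elongation factors to the ribosome and consists of Rplp0 with pairs of Rplp1 and Rplp2. Rplp0 had 2022, 4516, 1893 and 2108 FPKM in pericytes and 1335, 1034, 801 and 834 FPKM in SMCs, a rise of 1.33 (SE 0.31, limma q = 0.0216). Rplp1 rose by 1.30 (SE 0.34, q = 0.0328) and Rplp2 by 1.47 (SE 0.37, q = 0.0270), but with the length and GC trend removed their differences were 0.11 and -0.07. With that trend fitted without immune segments and members they were 1.18 and 1.32 (limma q = 0.00732 and 0.00796). When the replicate number was fitted as a block, Rplp1 had a q value of 0.0629. The large subunit proteins of Rpl5 and Rpl11 form a particle with 5S RNA that also binds the p53 regulator MDM2. Rpl5 had 503, 1033, 547 and 558 FPKM in pericytes and 320.2, 281, 175 and 178 FPKM in SMCs and rose by 1.45 (SE 0.30, q = 0.0129). Rpl11 rose by 1.51 (SE 0.32, q = 0.0149), close to Rpl5. Rps6, the small subunit protein phosphorylated by S6 kinases, had 1127 to 2641 FPKM in pericytes and 349.7 to 627 FPKM in SMCs and rose by 1.62 (q = 0.0110). Of 9 genes whose proteins line the exit tunnel of the large subunit, 7 rose, beside 67 of all 81 members and 10.6% of all genes tested. Rpl31 (1.26, q = 0.0560) and Rpl39 (1.37, q = 0.0523) fell short. With the length and GC trend removed Rpl31 passed (1.38, q = 0.00129) and Rpl39 did not (0.67, q = 0.0525). In the same fit Rpl23a and Rpl26, which had passed, no longer did (0.51 and 0.25, q = 0.0865 and 0.450). With the trend fitted without immune segments and members, Rpl31, Rpl39, Rpl23a and Rpl26 all passed. Their differences were then 1.28, 1.34, 1.38 and 1.02 (limma q = 0.00220, 0.00242, 0.00104 and 0.00743). Of the 4 genes on the X chromosome, Rps4x and Rpl36a rose and Rpl10 and Rpl39 did not pass. Rpl36a (1.40, q = 0.0451) missed the threshold without PC-2 (1.06, q = 0.0524) and with the replicate block (1.40, q = 0.0640). With the length and GC trend removed its difference was -0.024 (q = 0.959), and with that trend fitted without immune segments and members 1.30 (q = 0.00253).

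The members with the largest spread within groups included Rpl39l, Rps21, Rpl39 and Rpl38. Rpl38, which is needed for translation of Hox mRNAs in the mouse embryo, had 961, 3221, 1101 and 1355 FPKM in pericytes and 762, 669, 478 and 422 FPKM in SMCs. Its difference of 1.37 (SE 0.40, limma q = 0.04999) passed by the smallest margin of all members, missed the threshold with the replicate block (q = 0.0602) and was -0.81 with the length and GC trend removed. With that trend fitted without immune segments and members it was 1.18 (q = 0.0199). Rps21 had 515, 1817, 726 and 821 FPKM in pericytes and 569, 422, 281 and 294 FPKM in SMCs. SMC-1 lay above PC-1 in this gene, and its difference of 1.20 (SE 0.41, q = 0.0852) did not pass. It was -0.76 with the trend fitted on all genes removed, and 1.05 with the trend fitted without immune segments and members (q = 0.0236).

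In total 14 members did not pass. Among them, Rpl7a, Rpl37, Rpl31, Rpl39, Rpl41 and Rps21 had differences of 1.11 to 1.37, within the range of genes that passed. With the length and GC trend removed, Rpl7a and Rpl37 passed (1.16 and 1.17, limma q = 0.00749 and 0.00267). Rpl28, Rpl24 and Rpl10 had the smallest positive differences of the abundant genes, at 1.02, 0.94 and 0.92 (limma q = 0.105, 0.0844 and 0.123). Rpl10, which joins the large subunit late in its assembly, had 1099.9, 2620.4, 1132 and 1263 FPKM in pericytes and 1119.7, 910.2, 596 and 525 FPKM in SMCs, so that SMC-1 lay between PC-1 and PC-3. Rpl24 had 829.9, 2066, 839.6 and 1048 FPKM against 743, 657, 451 and 509 FPKM, without overlap. A q value above 0.05 does not show that these genes were level between the groups.

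Rps27l, a paralog of Rps27 that p53 can induce, was the 1 abundant member with a difference below 0, which did not pass. It had 288, 856, 277 and 376 FPKM in PC-1 to PC-4 and 537, 486, 398 and 439 FPKM in SMC-1 to SMC-4, so that 3 pericyte libraries lay below every SMC library and PC-2 lay above all. The difference was -0.21 (SE 0.36, 95% interval -1.05 to 0.63, limma q = 0.756). Without PC-2 it was -0.57 with q = 0.0404, and with the length and GC trend removed it was -1.57 with q = 4.3e-04. With that trend fitted without immunoglobulin and T cell receptor segments and members it was -0.34 with q = 0.331. Among the 81 members it ranked 77, 77, 78 and 77 in pericytes and 49, 46, 41 and 39 in SMCs. Rps27 was 27.2, 26.6, 32.9 and 29.3 times as abundant as Rps27l in PC-1 to PC-4 and 6.78, 5.72, 5.96 and 5.51 times in SMC-1 to SMC-4. This ratio separated the groups widely and did not single out PC-2.

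Rps27l lies on chromosome 9 (chr9:66793893-66797323, plus strand, NCBI Build 37). The coding sequences of Rps27 and Rps27l in the GENCODE transcripts of that build have 255 bases each and are shown because the ratio of the paralogs separated the groups, with differing bases in capitals.
Rps27: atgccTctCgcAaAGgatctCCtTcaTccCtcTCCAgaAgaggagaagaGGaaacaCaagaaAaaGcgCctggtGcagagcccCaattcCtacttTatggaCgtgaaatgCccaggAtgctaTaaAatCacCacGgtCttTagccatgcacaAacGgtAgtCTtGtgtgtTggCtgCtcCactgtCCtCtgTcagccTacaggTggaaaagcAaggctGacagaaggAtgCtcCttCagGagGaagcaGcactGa
Rps27l: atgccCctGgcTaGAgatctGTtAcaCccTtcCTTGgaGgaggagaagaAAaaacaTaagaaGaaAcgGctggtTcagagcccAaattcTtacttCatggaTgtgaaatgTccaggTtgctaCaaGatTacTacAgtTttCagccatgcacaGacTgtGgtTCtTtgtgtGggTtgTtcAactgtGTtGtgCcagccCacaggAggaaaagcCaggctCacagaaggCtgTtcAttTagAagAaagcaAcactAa
They differ at 61 positions (76.1% identity), and the longest stretch they share is 11 bases. Rpl39 and Rpl39l differ at 23 of 156 bases (85.3% identity) and share a stretch of 38 bases.

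The 3 members under 10 FPKM are paralogs known from other tissues. Rpl3l is known from heart and skeletal muscle fibres and had 0.483, 1.54, 0 and 0.240 FPKM in pericytes and 0.208, 0.0674, 0 and 0.535 FPKM in SMCs. Its coding sequence is 73.3% identical to that of the abundant Rpl3. Rpl10l is known from the testis and was listed at 0 in 5 libraries and at 0.121 FPKM or less in the others. Rpl39l, also known from the testis, had 2.16, 4.98, 0 and 1.33 FPKM in pericytes and 5.47, 3.69, 2.30 and 2.30 FPKM in SMCs, a difference of -0.73 (SE 0.53, limma q = 0.440). It was at most 1.88% of Rpl39 in any library. How reads that match several copies were counted is not given in the sources used here, so values of members with processed pseudogenes are uncertain in part, although the 162 pseudogenes together held only 0.00498% to 0.0271% of the summed FPKM of a library.

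To describe how members differed among themselves, each abundant gene was set against the median abundant member of its library. The libraries of a group were then close, with a median SD over genes of 0.09 in pericytes and 0.09 in SMCs, against 0.64 and 0.37 before. The relative level had every pericyte library above every SMC library in 21 genes, the reverse in 9 and an overlap in 48, and in 72 of the 78 genes the group means lay within 0.5 of each other. Centred in the same way, 2.09% of all genes tested and 8.35% of the 1234 other abundant genes had every pericyte library above every SMC library, and 71.8% and 69.4% had the reverse. The small subunit held 16 of the 21 genes and 2 of the 9, and the large subunit 5 and 7. This count comes from values centred on the members themselves and has no test.

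**Figure D4:**
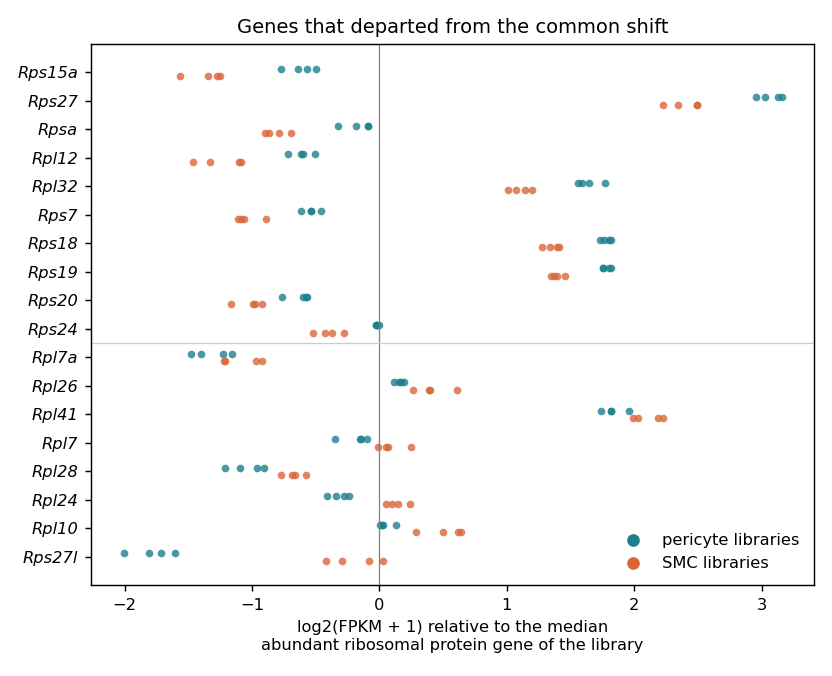
Level of single genes relative to the median abundant ribosomal protein gene of the same library, as a difference of log2(FPKM + 1), for 10 genes that departed upward in pericytes and 8 that departed downward, 1 point per library. Rps27l departs most, at -2.01 to -1.61 in pericytes and -0.42 to 0.03 in SMCs.

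Relative to the median member, Rps15a lay at -0.77 to -0.50 in pericytes and -1.57 to -1.25 in SMCs, and Rps27 at 2.96 to 3.15 and 2.22 to 2.49. For Rps27 this order turned with the length and GC trend removed, where its difference was -0.34 and the median difference of the members 1.13. Rpsa, Rpl12, Rpl32 and Rps7 were also relatively higher in pericytes, by 0.64, 0.64, 0.54 and 0.50 on the mean, but with that trend removed Rpl32 too lay below the members' median, at 0.80. With the trend fitted without immune segments and members neither order turned, at 1.91 for Rps27 and 1.85 for Rpl32 against a median of 1.42. Rpl10 lay at 0.01 to 0.13 in pericytes and 0.29 to 0.64 in SMCs, a difference of -0.46, and Rpl24 and Rpl28 differed by -0.45 and -0.37. 

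PC-2 was the highest pericyte library for all 78 abundant members, at 1.56 to 2.83 times the mean of PC-1, PC-3 and PC-4 (median 2.36). Short transcripts in general were raised in PC-2. Over 12744 other genes that averaged 1 FPKM or more, the deviation of PC-2 from the pericyte mean changed by -0.29 per log2 of transcript length, whereas the slopes of the other libraries were between -0.13 and 0.14. The members are short, with a median transcript of 725.5 bases (345 to 3706). Other genes of at most 1000 bases were raised in PC-2 by a median of 0.52 to 0.60 in 3 classes of length, and the members by 0.93. The SMC libraries were split as well, by smaller deviations. SMC-1 was the highest SMC library in 78 of 78 members, and SMC-1 and SMC-2 lay above SMC-3 and SMC-4 in 78 of 78. The members' median deviations were 0.46, 0.17, -0.35 and -0.26 in SMC-1 to SMC-4, where the slopes of other genes on length were -0.13, -0.03, 0.06 and 0.10. Within the members, the slope on length was -0.09 in PC-2 and 0.005, 0.005, -0.02 and 0.01 in SMC-1 to SMC-4.

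**Figure D5:**
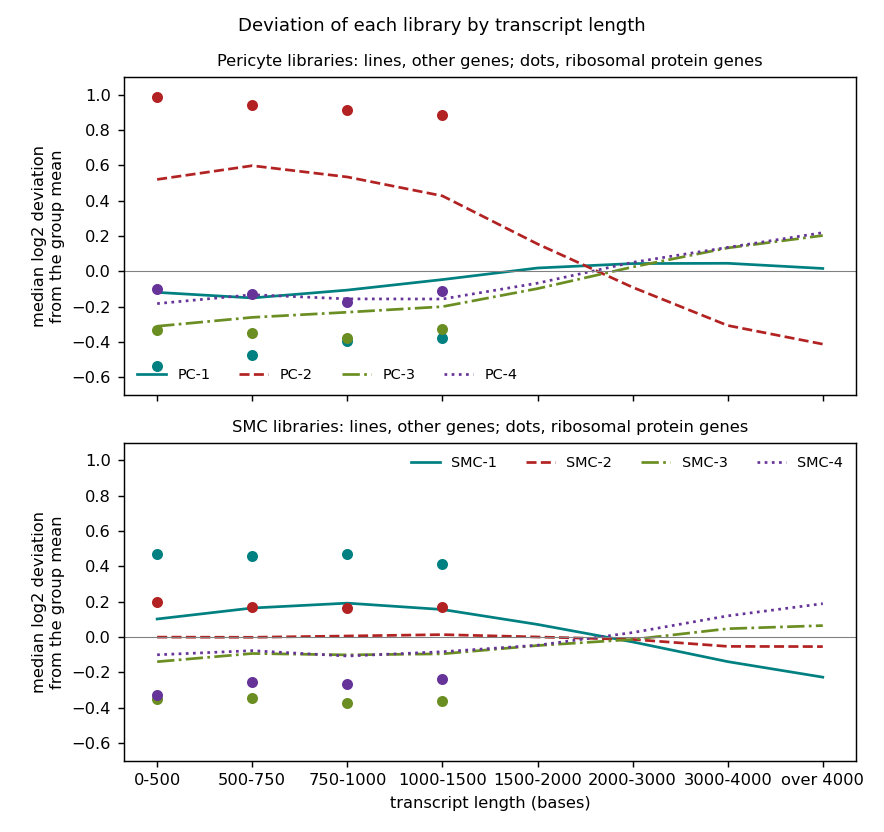
Median deviation of each library from its group's mean log2(FPKM + 1) by class of transcript length (bases), for other genes that averaged 1 FPKM or more (lines) and for ribosomal protein genes in classes with at least 10 of them (dots). The PC-2 line falls from above 0.5 for short genes to -0.41 for the longest, and the PC-2 dots lie above it, near 0.9 to 1.0.

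Other short genes were compared between the groups as well. Among 479 other protein-coding genes of at most 1000 bases that averaged 100 FPKM or more, 15.7% were called higher in pericytes by limma and the median difference was 0.04. The 448 other genes of at most 500 bases that averaged 1 FPKM or more had a median difference of 2.75. Of these, 263 were immunoglobulin and T cell receptor segments with a median of 4.16, whereas the rest had 0.14. With a length and GC trend fitted on all genes removed, 51 members were called higher in pericytes (16.4% of the 20793 genes with a length), Rps27l and Rpl39l were called higher in SMCs (19.4%), and 12 had a negative difference, 11 of them among the 14 members of at most 500 bases. Of the 66 longer members, 51 were called, against 56 without the correction. With the trend fitted without the segments and the members, 76 members were called higher in pericytes (16.5% of those genes) and none higher in SMCs (15.4%).

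Ribosomal proteins with other symbols were measured as well. Fau, whose product carries a ubiquitin-like part that is cut off, had 859, 2484, 989 and 1169 FPKM in pericytes and 578, 457, 404 and 411 FPKM in SMCs and rose by 1.45 (SE 0.33, limma q = 0.0191), or by 0.69 with the length and GC trend removed (q = 0.0481). Gnb2l1, the gene of the small subunit scaffold RACK1, had 592, 1724, 617 and 583 FPKM in pericytes and 457, 330.2, 197 and 209 FPKM in SMCs (1.47, q = 0.0522), and passed with the length and GC trend removed (1.62, q = 0.00360). The paralogs Rpl22l1, Rpl36al and Rpl7l1 had differences of 0.89, 0.91 and 0.34 (q = 0.110, 0.116 and 0.350), and with that trend removed they were -0.40 for Rpl22l1 and 0.65 for Rpl36al, which then passed (q = 0.0317).

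Other parts of the translation machinery were compared through lists of known members, beside 10.6% of all genes called higher in pericytes and 11.2% in SMCs. The list of elongation factors also held Eef1e1 and Eef2k, which are not elongation factors themselves. Of its 9 genes tested, 5 rose (Eef1g, Eef1e1, Eef1b2, Eef2 and Eef1a1) and none was higher in SMCs, with a median of 1.18. The count was 3 without PC-1, SMC-3 or SMC-4. Eef2, which moves the ribosome along the mRNA, had 516, 592, 630.3 and 645 FPKM in pericytes and 229.8, 186, 307 and 326 FPKM in SMCs (1.21, SE 0.19, limma q = 0.00367). It belongs to the TOP class but is long, and PC-2 did not stand out. Eef1a1, which brings aminoacyl-tRNA to the ribosome, had 3222, 5612, 3393 and 3601 FPKM against 2075, 1848, 1427 and 1535 FPKM (1.18, q = 0.00621). Of 3 further TOP mRNAs, Tpt1, Nap1l1 and Hnrnpa1, none passed, with differences of 0.52, 0.41 and 0.73 (limma q = 0.318, 0.0859 and 0.111). With the length and GC trend removed all 3 passed, at 0.68, 0.53 and 0.90 (q = 0.0212, 0.0118 and 0.00821), and with the replicate block Nap1l1 and Hnrnpa1 passed (q = 0.0375 and 0.0122).

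Of 41 initiation factor genes, 13 rose and 1 was higher in SMCs, and without PC-2 these counts were 17 and 3. Pabpc1, the poly(A)-binding protein and itself of the TOP class, rose by 1.56 (SE 0.29, limma q = 0.00777), Eif3h by 1.05 (q = 0.0242) and Eif4b by 1.03 (q = 0.00246). Eif1a had 72.3 to 92.0 FPKM in pericytes and 134 to 169.7 FPKM in SMCs, a difference of -0.85 (q = 0.00154). Of 8 genes of termination and rescue, only Etf1 rose, by 0.59 (q = 0.00102), and 2 rose without PC-2. Among 22 aminoacyl-tRNA synthetase and associated genes, 6 rose, led by Vars at 1.90 (q = 0.0152), and 3 rose without PC-1.

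Genes that build ribosomes gave the highest count of these lists, with 36 of 59 biogenesis factors higher in pericytes and 1 higher in SMCs (median 0.99). Npm1, a nucleolar chaperone, had 599.6, 909, 625 and 597 FPKM in pericytes and 266, 297, 185 and 202 FPKM in SMCs (1.52, SE 0.20, limma q = 0.00185). Nop56, of the box C/D particles that methylate ribosomal RNA, rose by 1.54 (q = 0.0136), the RNA helicase Ddx21 by 1.45 (q = 0.00260) and Tcof1 by 1.87 (q = 0.0464). Nop58, the partner of Nop56 in those particles, was the exception, with 63.6 to 81.9 FPKM in pericytes and 101 to 147 FPKM in SMCs (-0.69, q = 0.0124). Of 14 genes of RNA polymerase I, which transcribes ribosomal RNA, 8 rose, among them Polr1b by 1.58 (q = 0.00578) and Twistnb by 1.31 (q = 2.6e-04). These genes are longer than the members, with list medians of 2075 and 2286 bases, and without PC-2 the counts were 36 and 11. The count of biogenesis factors was 23 without PC-1 or SMC-3, and that of RNA polymerase I genes was 5 without PC-1, PC-3, PC-4, SMC-1 or SMC-3.

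Of 22 genes of mTOR signalling and TOP control, 8 rose and 2 were higher in SMCs. Without PC-2 these counts were 10 and 4, 5 rose without PC-1 or SMC-1, and 1 was higher in SMCs without PC-1, PC-3, PC-4 or SMC-4. Larp1, the protein that binds the TOP run, had 5.68, 6.63, 7.09 and 5.90 FPKM in pericytes and 1.86, 1.97, 2.22 and 1.75 FPKM in SMCs (1.31, SE 0.09, limma q = 8.5e-05). Mtor itself rose by 1.24 (q = 0.0162) and Rps6ka1, a kinase that can phosphorylate RPS6, by 2.49 (q = 0.00910). Deptor, an inhibitor of mTOR, was higher in SMCs, at 16.9 to 20.05 FPKM against 4.88 to 10.7 FPKM (-1.34, q = 0.00325).

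Mitochondrial ribosomal proteins form the separate ribosome inside mitochondria. Of their 76 genes, 5 rose, against 10.6% of all genes tested, and 1 was higher in SMCs, against 11.2%, and the median difference was 0.08 against 0.02 over all genes tested. Mrpl9 rose by 1.06 (limma q = 0.0140), whereas Mrpl27 had 39.7, 85.5, 30.4 and 36.3 FPKM in pericytes and 149, 118, 102 and 109 FPKM in SMCs (-1.41, q = 0.0180). Their median length was 1065 bases, against 725.5 for the members. Without PC-2, 5 were higher in pericytes and 12 higher in SMCs, and without any other library 1 to 5 and 0 to 1.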

How the data were processed

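RNA of pericytes and SMCs was sequenced in 4 libraries of each. The submitters' processing notes name FastQC, Bowtie2 and TopHat, and the study's methods name NCBI Build 37 with Ensembl genes. The authors deposited FPKM per gene and library, without log transformation. The program that computed FPKM and the use of strand are not given in the sources used here. Transcript lengths and positions came from GENCODE vM1 (NCBI Build 37), which held 80 of the 81 members, and promoters from RefSeq (GRCm38.p6). A gene's length was the median over its transcripts.

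Groups were taken from the sample titles. Values were tested as log2(FPKM + 1) over 27414 genes with limma 3.58.1 (lmFit, eBayes, Benjamini-Hochberg, q below 0.05) in R 4.3.3, with Python 3.11.15, numpy 2.4.6 and pandas 2.3.3 for summaries. On simulated data, 73 of 200 genes changed by 1.5 log2 units were recovered (36.5%), with 4 false calls among 27414 genes. Noise was drawn for each gene on its own there. Far fewer genes were changed than were called in the data, where 2917 were higher in pericytes and 3060 in SMCs. The recovered share is therefore not the sensitivity of the test in these data. The reads behind each value are unknown, and no counting error could be stated. The study used limma and called genes by q value and a fold threshold, and here genes were called by q alone except where a log2 difference of 2 is named. No test was made on a share or median over the members. Members, lists and tests were chosen with earlier results of these data known.

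Genes were named by rule: the 6 most abundant members, the 10 largest differences past the threshold, members listed at 0, the 5 with the largest spread, paralogs and ribosomal proteins with other symbols, the P stalk and 5S genes, up to 4 of each translation list, and the genes of the sort. Rps6, Rpl3, Rpl4, Rpl10, Rpl24, Rpl28, Rpl31, Rpl7a, Rpl37, Rpl36a, Eef1a1, Tpt1, Nap1l1, Hnrnpa1, Nop58, Eif1a and genes given by name only were chosen after their values were seen. Some genes that are part of the counts are not reported here by name. Other settings tried were 0.1 as pseudocount, only genes that reached 1 FPKM in 4 libraries or more, scaling to a common sum (TPM), quantile and median-ratio scaling, a replicate block, an intensity trend, removal of a length and GC trend, and each library left out. Fitting that trend without immune segments and members, and removing it without PC-2, were chosen after seeing the data.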

Additional observations from a re-analysis of the deposited data

Results flagged for a closer look

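In groups of 4 libraries, a library far from the other 3 was looked for in 130 groups of named genes, and 12 were found where chance gives about 1 in 20. In 9 of them PC-2 was far above the other pericyte libraries on the log2(FPKM + 1) scale. Among members these were Rplp0 at 12.14 against 10.89 to 11.04 and Rpl5 at 10.01 against 8.98 to 9.13. Among related genes they were Gnb2l1 at 10.75, Rpl22l1 at 9.27, Eef1g at 9.30, Eef1e1 at 6.02, Eef1b2 at 9.56, Eif3h at 8.89 and Npm1 at 9.83. In Ddx21 PC-2 was instead the lowest pericyte library, at 4.53 against 5.03 to 5.13. PC-2 was the highest pericyte library for all 78 abundant members. The part of the length dependence of PC-2 in these values was not tested.

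The other 2 cases were in SMCs. Eif4b was highest in SMC-4, at 4.84 against 4.43 to 4.49 in the other SMC libraries. Rpl10l was highest in SMC-1, at 0.075, where the other SMC libraries were listed at 0.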

How the results depend on the processing

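The median difference of the members and the difference in share kept their direction under every alternative run. The number of members called higher in pericytes was 51 with the length and GC trend removed, 52 with that and the replicate block, 50 with that and without PC-2, and 63 to 76 under the other alternatives that kept all libraries. Under these settings 7.72% (TPM) to 22.1% (genes that reached 1 FPKM) of all genes tested were called in this direction. It was 33 to 68 with each library left out in turn, where 8.32% to 11.8% of all genes tested were called. Members called higher in SMCs numbered 2 (Rpl39l and Rps27l) with the length and GC trend removed, 3 with the block as well (Rpl38 added), 5 with that trend removed without PC-2 (Rpl38, Rps21 and Rps27 added), and 0 to 1 (Rps27l, without PC-2) with each library left out. Members past a log2 difference of 2 numbered 0 with TPM or quantile scaling, 2 with the length and GC trend removed with or without the block, 1 with that trend removed without PC-2, and 0 to 6 with each library left out. The difference in share was 5.85 percentage points for FPKM times length and 8.45 to 10.9 with each library left out.

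Among genes named by rule, positive differences turned negative only where the length and GC trend fitted on all genes was removed. They were -0.34 for Rps27, -0.76 for Rps21, -0.81 for Rpl38, -0.40 for Rpl22l1 and -0.066 for Rplp2, with or without the block. Without PC-2 as well they were -0.55, -0.99, -1.09, -0.57 and -0.24, and -0.086 for Rplp1. With the trend fitted without immune segments and members none of these turned. In all, 28 members passed in every alternative.

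The deviations of pericyte and SMC libraries with the same number had a mean correlation across genes of 0.33 (0.08 to 0.47 over 4 pairs), and 2 of 4 pericyte libraries correlated best with their own number. Different numbers also correlated, at 0.31 for PC-1 with SMC-2, 0.54 for PC-2 with SMC-1, 0.21 for PC-3 with SMC-4 and 0.26 for PC-4 with SMC-3. Between replicates 1 or 2 of a group and 3 or 4 of the other the values were -0.45 to -0.10. What lies behind this grouping of libraries was not tested. As 1 pair of the same number was under 0.1 and no label ties the numbers to animals, they were taken as numbers only. With the replicate block 63 members were called higher in pericytes, all of them among the 67 called without it. Rps14 passed with the block at q = 0.0493. Reads per value are unknown, so the depth behind the 3 low paralogs cannot be stated.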
